A study of Mus musculus with 12 samples.

Results

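3T3-L1 is an established mouse line of fibroblast-like preadipocytes that turn into white-type fat cells when they are induced with hormones. Its differentiation was measured on 6 of the 12 Affymetrix arrays of the series, 3 of preadipocytes at day 0 and 3 of adipocytes at day 10, and is described here across all genes, with weight on gene families outside the classic fat markers. The day-0 cells had been confluent for 2 days and had received no inducer. The day-10 cells had been given IBMX (0.5 mM), a phosphodiesterase inhibitor that raises cyclic AMP, dexamethasone (1 µM), a synthetic glucocorticoid, and insulin (1 µg/mL) for 3 days, then insulin for 2 days, and then plain growth medium with fetal calf serum. No group was kept for 10 days without inducers, so induction and time in culture cannot be told apart. The labels do not say whether the 3 arrays of a group came from separate cultures, so p-values measure the spread between these samples, which may be technical. The other 6 arrays were of a brown fat cell line, 3 at day 0 and 3 at day 8, and entered the fit for the shared estimate of spread. The brown cells had received IBMX (0.5 mM), dexamethasone (1 µM), indomethacin (125 µM), insulin (20 nM) and the thyroid hormone T3 (1 nM) for 3 days, then insulin and T3 until day 8.

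Fat cell formation in this line runs through a known sequence. Confluent cells that receive inducers divide again for a short time, leave the cell cycle for good, and then switch on the receptor PPARγ and the factor C/EBPα, which activate the genes of lipid storage. Mature adipocytes also secrete hormones, carry out much lipid and amino acid oxidation, and lose the stress fibres of the fibroblast. The labels matched all the adipocyte genes checked here and most of the preadipocyte genes. All 12 adipocyte genes tested as a check rose, among them Pparg by 3.69 (SE 0.0644), Cebpa by 4.63 (SE 0.132), Fabp4 by 2.42 (SE 0.0854) and Adipoq by 9.45 (SE 0.229) on the log2 scale, and Lrg1, the gene named in the series title, rose by 3.23 (SE 0.0966). Of 8 preadipocyte genes tested, 5 fell, 1 rose, by 2.95, and 2 did not pass, with a median change of −1.05.

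Values below are probe set signals on the deposited linear scale, given as mean ± SD with n = 3 arrays in each group. Changes are differences of log2(signal + 16), day 10 minus day 0, with the SE and the Benjamini-Hochberg adjusted p of the limma fit over 13745 genes. A gene is said to have risen or fallen where that p was under 0.05. By this rule 61.2% of the genes tested passed, of which 4129 rose, 30.0% of those tested, and 4282 fell, 31.2%. At 2-fold or more, 1820 rose (13.2%) and 1706 fell (12.4%), and these shares are the background against which each family's count can be read. Changes of 8-fold or more numbered 292 rises and 196 falls. In 66.0% of genes every day-0 array was on one side of every day-10 array. The 40 largest rises and 40 largest falls were picked among such genes, so their lack of overlap was set by the choice. The median gene changed by 0.02, or by −0.23 with the arrays scaled to their hybridization controls instead, which called 2931 up and 5640 down (34.2% of calls up, against 49.1%). Where this scaling turned the balance of a family or moved its rises or falls by over 1.5 times, its counts of rises and falls under it follow in brackets as control-scaled. For 330 of the 1820 rises of 2-fold or more, all 3 day-0 signals lay below the 40th percentile of their arrays (32.9 to 39.0), where the size of a change depends on the number added to the signal.

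**Figure D1:**
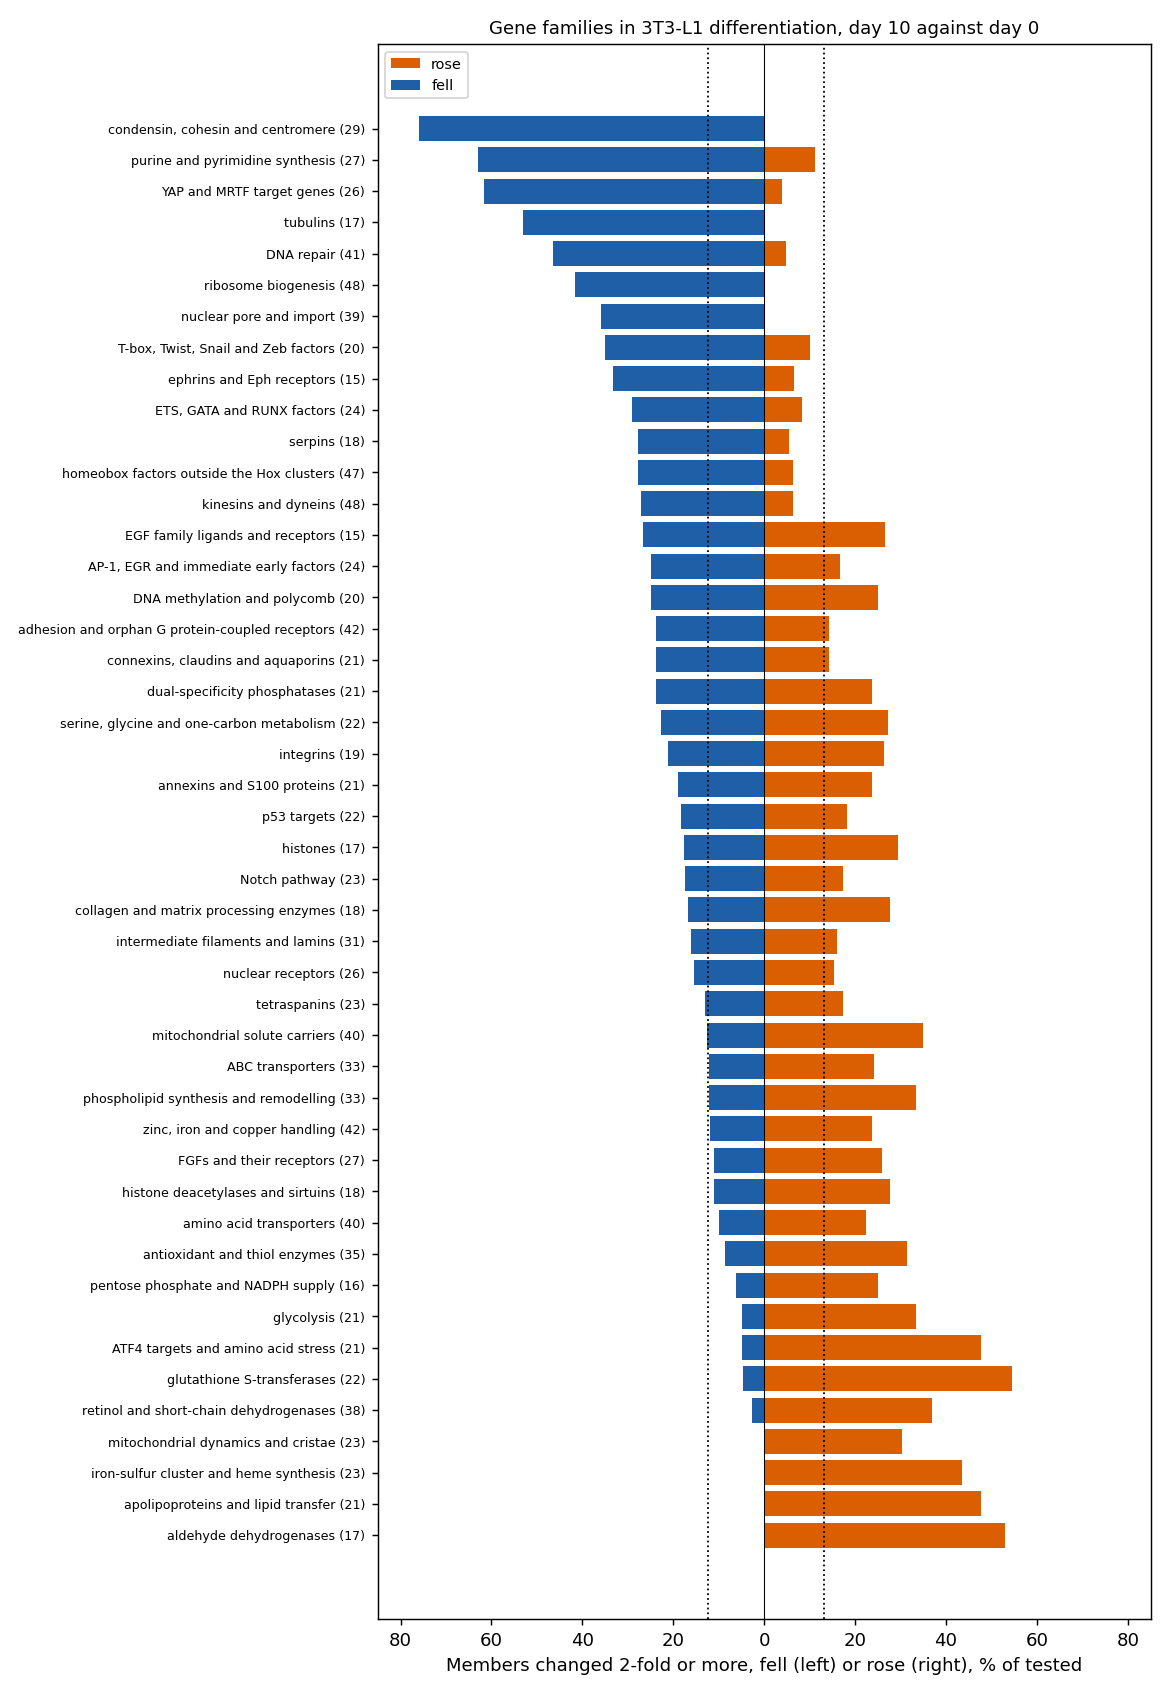
Share of tested members that rose (right, orange) or fell (left, blue) by 2-fold or more, in percent, for the 46 families with at least 15 members tested of which at least 30% changed that much; brackets give the number tested and dotted lines the shares over all 13745 genes (13.2% up, 12.4% down). Condensin, cohesin and centromere genes (75.9%) and purine and pyrimidine synthesis genes (63.0%) reach farthest to the left, and glutathione S-transferases (54.5%) and aldehyde dehydrogenases (52.9%) farthest to the right.

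Some RNA quality measures moved with the groups. For beta-actin, the control probe sets at the 3' end read over those at the 5' end gave 1.4 ± 0.0554 at day 0 and 2.25 ± 0.151 at day 10 (exact permutation test, two-sided p = 0.1, the smallest that 3 against 3 arrays can give), and Gapdh gave 0.861 ± 0.0342 and 0.828 ± 0.00689 (exact permutation p = 0.1). The same ratio was 3.63 ± 0.693 and 7.64 ± 1.83 for pyruvate carboxylase (exact permutation p = 0.1). For the transferrin receptor it was 1.77 ± 0.418 and 3.82 ± 2.4 (exact permutation p = 0.2), and for the added dap control 4.25 ± 1.16 and 4.66 ± 0.426 (exact permutation p = 0.6). The groups overlapped for both of these controls, and the 5' signal of the transferrin receptor was as low as 20.0 at day 0. The part of these ratios in the results below was not tested. Several defining markers of other cell types were dim, but others were measurable. Of 13 macrophage and leukocyte markers on the array, 8 were bright enough to test, of which 1 rose and 3 fell, and their summed signal was 3927 to 4286 at day 0 and 2357 to 2494 at day 10. The leukocyte antigen gene Ptprc was too dim to test, with a highest white array of 35.6. Of 10 endothelial markers 3 were tested, 1 rose and 0 fell, with summed signals of 116 to 192 and 119 to 190.3, and Pecam1 reached 9.12 at most. Of 13 skeletal muscle markers 7 were tested, 2 rose and 1 fell, with sums of 392 to 581 and 1041 to 1068. Most of the day-10 sum was desmin (Des, 133 ± 39 and 685 ± 36.8 at day 0 and day 10), and the muscle factor Myog reached 25.1 at most. Of 6 osteoblast markers 4 were tested, 1 rose and 1 fell, with sums of 2883 to 3087 at day 0 and 2488 to 3071 at day 10. Of 10 chondrocyte markers 7 were tested, 2 rose and 1 fell, with sums of 1044 to 1102 at day 0 and 465 to 499 at day 10. The part of these other cell type markers in the results was not tested. Of the brown fat markers 13 were tested, 9 rose, 8 of them by 2-fold or more, and 1 fell. Their summed signals were 1248 to 1290 at day 0 and 9595 to 10946.5 at day 10. By contrast, Ucp1, which defines brown fat, had signals of 9.41 ± 5.83 and 6.14 ± 1.93.

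Genes that pack and separate chromosomes fell. Of 29 condensin, cohesin and centromere genes, 28 fell and none rose, 22 of them by 2-fold or more, with a median change of −2.12. Smc2, a motor subunit of condensin, gave 4362, 4007 and 4503 at day 0 and 437, 297 and 311 at day 10. All 3 day-10 arrays lay far below all 3 day-0 arrays (log2 change −3.58, SE 0.122, adjusted p = 2.91e-09). The condensin subunit Ncapg went from 1567 ± 136 to 143 ± 46.6, and Cenpf, a kinetochore protein of dividing cells, went from 1839 ± 29.7 to 152 ± 26.3. Their log2 changes were −3.35 (SE 0.17) and −3.47 (SE 0.1).

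Promoter windows of these genes are shown because their members moved together. In each window, from 250 bases before to 50 after the RefSeq start site (GRCm38.p6), capitals mark matches on either strand to the cell cycle homology region (TTTGAA), the CCAAT box (CCAAT) and an E2F site (TTTGGCGC or TTTCCCGC).
Ncapg (chr5:45669675-45669974, plus strand): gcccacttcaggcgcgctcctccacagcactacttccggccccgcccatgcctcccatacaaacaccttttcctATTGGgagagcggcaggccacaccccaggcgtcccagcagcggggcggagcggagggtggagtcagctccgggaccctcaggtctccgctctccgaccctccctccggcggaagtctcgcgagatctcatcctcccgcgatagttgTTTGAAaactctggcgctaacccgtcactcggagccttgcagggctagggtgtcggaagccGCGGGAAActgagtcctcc
Cenpf (chr1:189688037-189688336, minus strand): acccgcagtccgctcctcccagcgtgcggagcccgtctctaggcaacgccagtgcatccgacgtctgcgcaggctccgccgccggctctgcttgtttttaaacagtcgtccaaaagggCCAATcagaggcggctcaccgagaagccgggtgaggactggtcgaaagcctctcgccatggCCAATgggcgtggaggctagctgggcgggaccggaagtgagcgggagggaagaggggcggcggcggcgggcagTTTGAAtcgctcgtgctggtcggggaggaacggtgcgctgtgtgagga
Smc2 (chr4:52438971-52439270, plus strand): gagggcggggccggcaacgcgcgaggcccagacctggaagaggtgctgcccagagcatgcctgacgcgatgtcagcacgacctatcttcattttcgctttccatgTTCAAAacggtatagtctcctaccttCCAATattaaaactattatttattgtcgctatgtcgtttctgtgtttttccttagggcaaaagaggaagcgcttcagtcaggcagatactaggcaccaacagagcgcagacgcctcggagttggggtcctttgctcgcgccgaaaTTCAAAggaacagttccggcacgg
An E2F match was present in 8 of the 29 windows of this family's 26 matched genes (27.6%), against 1.56% of all 32851 windows. Windows with both a TTTGAA and a CCAAT match made up 27.6% here and 6.95% of all. These letters describe the windows and were not tested, and the family was assembled from genes known to act in cell division.

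Genes of DNA repair and of nucleotide supply fell with them. Of 41 repair genes 29 fell and 5 rose (control-scaled 2 and 31). The exonuclease Exo1 went from 788 ± 132 to 42.4 ± 3.23 (log2 change −3.77, SE 0.122, adjusted p = 2.00e-09), the recombination cofactor Rad51ap1 changed by −3.87 (SE 0.18), and Lig1, the ligase that seals replicated strands, by −2.99 (SE 0.0827). The rises included Xpc, which recognizes bulky lesions in nucleotide excision repair, from 244 ± 16.4 to 646 ± 23.4. Of 27 purine and pyrimidine synthesis genes 21 fell, 17 by 2-fold or more, and 5 rose (control-scaled 3 and 21). The ribonucleotide reductase subunits Rrm1 and Rrm2, which make the building blocks of DNA, fell from 6878 ± 114 to 842 ± 23.8 and from 11186 ± 834 to 729.8 ± 55.2. Thymidine kinase Tk1 changed by −3.75 (SE 0.0627). Members of the same list that rose were Adssl1, by 1.81 (SE 0.135), Impdh1, by 1.43 (SE 0.0982), and Ctps2, by 1.06 (SE 0.0657), which act in adenine, guanine and cytosine nucleotide synthesis.

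Chromatin regulators split by paralogue. Hmga2, an architectural protein of proliferating and embryonic cells, gave 10808, 10307 and 10475 at day 0 and 319, 285 and 294 at day 10 and fell by 5.06 (SE 0.0739) on the log2 scale (adjusted p = 1.99e-11). Hmgb2 fell as well, by 3.13 (SE 0.197). The maintenance DNA methyltransferase Dnmt1 fell from 3277 ± 176 to 390.0 ± 9.74, whereas the de novo methyltransferase Dnmt3a rose from 424 ± 46.6 to 1726 ± 39.4. Groups did not overlap for either enzyme. In the polycomb family Ezh2, the methyltransferase subunit of dividing cells, fell by 1.34 (SE 0.106), and Jarid2, a cofactor that guides the complex, rose by 2.28 (SE 0.0811). Of 20 methylation and polycomb genes, 9 rose and 10 fell. Among histone deacetylases and sirtuins 8 of 18 rose and 5 fell (control-scaled 5 and 7). Hdac9, a class IIa deacetylase, rose from 17.1 ± 9.6 to 434 ± 9.94, and the mitochondrial sirtuins Sirt3 and Sirt5 rose by 2.01 (SE 0.115) and 1.90 (SE 0.116), while Hdac1 fell by 1.05 (SE 0.0742).

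Histone genes moved in both directions. Of 17 histone genes tested, 7 rose and 3 fell. The variants H2az1 and H2ax fell, by 1.45 (SE 0.0633) and 1.01 (SE 0.0582). H2ac19 went from 313 ± 59.2 to 12051 ± 678 (log2 change 5.21, SE 0.111, adjusted p = 1.38e-10). Replicative histone genes exist in many near-identical copies, so the gene of origin of the H2ac19 signal is uncertain. The nuclear lamina genes Lmnb1 and Lmnb2 fell by 2.88 (SE 0.0651) and 2.02 (SE 0.248).

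Most genes that build ribosomes fell, and the count for the cytosolic ribosome itself depended on the probe sets and the scaling. Of 48 ribosome biogenesis genes 43 fell and 1 rose, with a median change of −0.89. Nop56 and Nop58, core proteins of the particles that methylate ribosomal RNA, fell from 4956 ± 335 to 917 ± 76.2 and from 3975 ± 197 to 871 ± 49.8. Nop56 gave 5238, 4586 and 5045 at day 0 and 990.3, 838 and 923 at day 10, with no overlap between the groups. Of 44 cytosolic ribosomal protein genes 13 fell and 1 rose, and their median change was −0.06 (−0.34 under hybridization control scaling, with 35 called down). With specific probe sets only, 22 of them could be tested, 14 fell and 1 rose, at a median of −0.63, against −0.85 for ribosome biogenesis under the same setting. The E-box CACGTG was present in 10 of 47 promoter windows of 43 biogenesis genes (21.3%) and in 7.15% of all windows. Shares in other families ran from 0.0% (condensin, cohesin and centromere genes) to 44.4% (cathepsins, most of which rose), and were not tested.

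Nuclear transport, splicing, tRNA charging, chaperonin and proteasome genes fell more often than they rose. Cytosolic heat shock proteins did not share this balance, with 15 of 37 up and 12 down (control-scaled 9 and 16). Nuclear pore and import genes fell in 32 of 39 cases and rose in 3 (control-scaled 0 and 35), with the import adaptor Kpna2 down by 2.00 (SE 0.0723) and its partner Kpnb1 by 1.70 (SE 0.0593). Of 28 SR and hnRNP splicing factors 23 fell and 1 rose, with Srsf3 down by 1.50 (SE 0.0689) and Hnrnpm by 1.82 (SE 0.129). Cytosolic tRNA synthetases fell in 11 of 19 cases and rose in 4 (0 up and 13 down under hybridization control scaling). Of 9 genes of the TRiC chaperonin, which folds actin and tubulin, 7 fell and 1 rose. The rise, of 1.55, was the only change of 2-fold or more in this family. Cct8 was down by 0.87 (SE 0.0705) and Cct5 by 0.80 (SE 0.0586). Proteasome subunits fell in 22 of 37 cases and rose in 7 (control-scaled 3 and 28), at a median of −0.29 (−0.56 under hybridization control scaling). Psma1, a subunit of the core particle, rose from 8690.5 ± 122 to 24628 ± 412. Eif4ebp1, a brake on cap-dependent translation that insulin signalling releases, rose from 7967 ± 368 to 17466 ± 172.

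**Figure D2:**
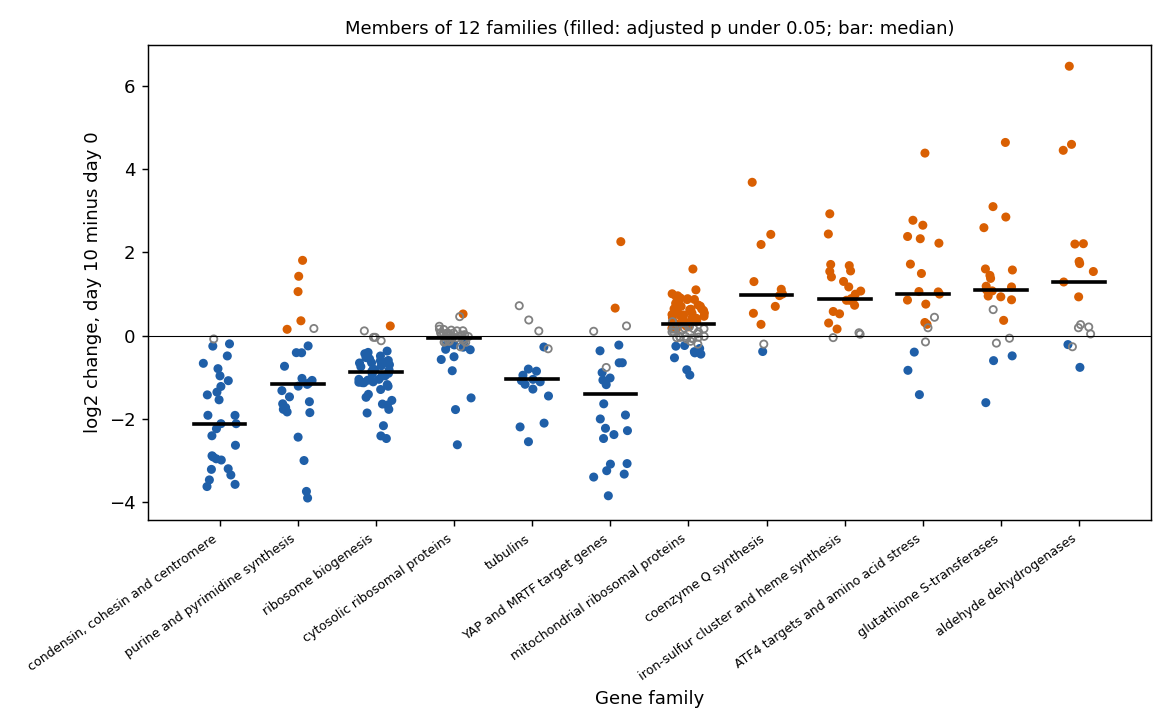
Log2 change (day 10 minus day 0) of every tested member of 12 families, 1 point per gene, with a bar at the family's median; filled points passed an adjusted p of 0.05 (orange rose, blue fell) and open points did not. Condensin, cohesin and centromere genes centre on −2.12, ribosome biogenesis genes on −0.89, cytosolic ribosomal proteins on −0.06, glutathione S-transferases on 1.08 and aldehyde dehydrogenases on 1.29.

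Mitochondrial genes outside the respiratory chain rose by family to different extents. Coenzyme Q carries electrons between respiratory complexes, and 10 of 12 genes of its synthesis rose while 1 fell (control-scaled 8 and 2). Coq8a, a regulator of the synthesis complex, rose from 46.6 ± 37.8 to 703 ± 81.2, the lipid-binding subunit Coq9 from 1022 ± 33.7 to 5591 ± 244, and the methyltransferase Coq5 by 2.19 (SE 0.0963). The member that fell was Coq4, by 0.38 (SE 0.108). Of 23 iron-sulfur cluster and heme genes 20 rose and none fell (17 up and 2 down under hybridization control scaling). Alas1, the rate-limiting enzyme of heme synthesis, gave 870.3, 912 and 869.9 at day 0 and 4772, 5085 and 4775 at day 10, and every day-10 array lay above every day-0 array (log2 change 2.44, SE 0.0722, adjusted p = 1.08e-09). Hmox1, which breaks heme down, rose from 1221 ± 139.5 to 9452 ± 1672.

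Mitochondrial ribosomal protein genes rose in 44 of 76 cases and fell in 9, but by little. Their median was 0.28, it went to 0.00 under hybridization control scaling with 24 up and 22 down, and 3 members reached 2-fold. Protein import genes rose in 21 of 29 cases (control-scaled 10 and 4), with the processing peptidase subunit Pmpcb up by 1.14 (SE 0.0682) (median 0.29, and 0.02 under hybridization control scaling). The PGC-1 coactivators Ppargc1a and Ppargc1b, which drive mitochondrial biogenesis, rose by 2.46 (SE 0.139) and 3.28 (SE 0.101), whereas the related coactivator Pprc1 fell from 1444 ± 102 to 388 ± 49.5. Chchd10, a protein of the mitochondrial intermembrane space, rose from 64.4 ± 21.5 to 838 ± 226.

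The solute carriers of the inner membrane diverged. Of 40 Slc25 genes 21 rose, 14 by 2-fold or more, and 8 fell, 5 by 2-fold or more. The citrate carrier Slc25a1, which exports the carbon used for fatty acid synthesis, gave 1176, 1167 and 1046 at day 0 and 6314, 7209 and 6636 at day 10, a change of 2.56 (SE 0.0843) with no overlap between the groups. The dicarboxylate carrier Slc25a10 rose from 538 ± 29.3 to 6365 ± 316. The aspartate-glutamate carriers Slc25a12 and Slc25a13, parts of the malate-aspartate shuttle, fell from 2169.7 ± 55.8 to 641 ± 70.4 and from 644 ± 82.2 to 193 ± 11.5. Their partner enzymes, the aspartate aminotransferases Got1 and Got2, fell by 0.84 (SE 0.149) and 1.05 (SE 0.078). Slc25a24, a carrier of ATP and phosphate that responds to calcium, fell from 12457 ± 171 to 2128 ± 289.

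Of 21 glycolysis genes 13 rose and 2 fell (control-scaled 10 and 3). Pfkfb3, which makes the activator of phosphofructokinase, rose from 95.2 ± 27.6 to 1260.1 ± 118, and the phosphofructokinase Pfkl by 2.37 (SE 0.104). The muscle-type enolase Eno3 fell from 1742 ± 49.5 to 249 ± 24. Among sources of NADPH, the reducing power for lipid synthesis, malic enzyme Me1 rose from 1729 ± 148 to 8537 ± 166, transaldolase Taldo1 by 1.77 (SE 0.0664) and cytosolic isocitrate dehydrogenase Idh1 by 1.30 (SE 0.0733), with 9 of 16 members up and 4 down.

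Genes of amino acid and nitrogen metabolism rose and fell by step. The alanine aminotransferase Gpt gave 185, 129 and 128 at day 0 and 3713, 3521 and 3049 at day 10 (log2 change 4.41, SE 0.137, adjusted p = 1.50e-09), and its mitochondrial counterpart Gpt2 rose by 1.21 (SE 0.0884). Every day-10 array exceeded every day-0 array for both. Glutamine synthetase Glul rose from 1868 ± 244 to 13020.0 ± 401, and proline dehydrogenase Prodh from 32.3 ± 5.19 to 219.8 ± 41.9. Of 14 genes of glutamine, proline and urea cycle metabolism 7 rose and 3 fell (control-scaled 7 and 5). In one-carbon metabolism 9 of 22 rose and 11 fell. The mitochondrial serine hydroxymethyltransferase Shmt2 fell by 1.42 (SE 0.11) and the adenosylhomocysteine hydrolase Ahcy by 1.52 (SE 0.0676), whereas Aldh1l1, which oxidizes formyl-folate and is low in dividing cells, rose from 20.1 ± 13 to 817 ± 61.6. Of the polyamine and creatine genes 5 of 13 rose and 5 fell (control-scaled 2 and 6), with spermidine synthase Srm down from 3228 ± 43.1 to 1084 ± 70.9 and the creatine transporter Slc6a8 down by 1.48 (SE 0.133).

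Amino acid transporters rose in 15 of 40 cases and fell in 9. Transporters of glutamine moved in both directions. Slc38a1 gave 724, 790.4 and 897 at day 0 and 51, 49.2 and 6.94 at day 10, and Slc38a4 fell from 822 ± 16.5 to 104 ± 15.8, while Slc1a5 rose from 419 ± 11 to 2275 ± 266. The proton-coupled carrier of small amino acids Slc36a2, known from adipose tissue, rose from 33 ± 23.5 to 539.8 ± 39.9.

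Genes of lipid carriage outside the droplet made some of the largest rises. Apoc1, a small apolipoprotein that inhibits lipoprotein lipase, gave 55.3, 81.9 and 70.6 at day 0 and 21062, 20536 and 19049.8 at day 10. All day-10 arrays lay far above the day-0 arrays (log2 change 7.90, SE 0.105, adjusted p = 9.22e-12). Apoc4, its neighbour in the apolipoprotein cluster, rose from 6.14 ± 2.45 to 731 ± 88.2, and Apod, a lipocalin that binds small lipids, from 21.3 ± 24.3 to 2482 ± 408. Of 21 apolipoprotein and lipid transfer genes 12 rose and 2 fell (control-scaled 10 and 4). Of 33 ABC transporters 19 rose and 8 fell (control-scaled 12 and 10). The cholesterol exporters Abca1 and Abcg1 rose from 406 ± 54.7 to 9183 ± 164 and from 51.5 ± 15.6 to 2214 ± 157, and Abcd2, a peroxisomal carrier of very long fatty acids, rose from 43.3 ± 4.04 to 2139.7 ± 101. Among phospholipid genes 21 of 33 rose and 8 fell. The adipose phospholipase Plaat3 rose from 634 ± 73.8 to 15743 ± 299 and the choline phosphotransferase Chpt1 from 1313 ± 98.4 to 10561 ± 740.1. In ether lipid synthesis the acyltransferase Gnpat rose by 2.56 (SE 0.107), while Agps and Far1, which act in the same route, fell by 1.03 (SE 0.0908) and 1.46 (SE 0.0744).

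Many enzymes of detoxification and of small-molecule oxidation rose. Of 22 glutathione S-transferases 16 rose, 12 by 2-fold or more, and 3 fell (control-scaled 14 and 5). Gstz1, an enzyme of tyrosine breakdown, gave 442, 472 and 326 at day 0 and 10519, 10603 and 10675 at day 10 (log2 change 4.64, SE 0.118, adjusted p = 3.73e-10). All day-10 arrays lay far above the day-0 arrays. Gstk1, a mitochondrial and peroxisomal form, rose from 338 ± 33.5 to 2532 ± 200.1. Of 17 aldehyde dehydrogenases 10 rose and 2 fell. Aldh1a7 rose from 182 ± 19.2 to 17587 ± 390.1. It is nearly identical to Aldh1a1, so its probe set may read both. Of 37 cytochromes P450 9 rose and 4 fell (control-scaled 8 and 7), shares below those over all genes, and 24 did not pass. At 2-fold or more 8 of the 37 rose, a share above the 13.2% over all genes, and 1 fell. Cyp2f2 rose from 12.7 ± 9.84 to 2148 ± 167, while Cyp26b1, which degrades retinoic acid, fell from 149 ± 14.6 to 19.7 ± 3.34.

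Carboxylesterases, which hydrolyse esters including stored triglyceride, moved in opposite directions within the Ces1 group. Ces1f gave 13.9, 34.8 and 20.0 at day 0 and 10473, 10200.3 and 9221 at day 10, and Ces1d rose from 12 ± 3.46 to 2967 ± 212. Ces1g gave 515, 557 and 529 at day 0 and 30.2, 26.2 and 33.4 at day 10. The first of these were near the floor before differentiation, whereas Ces1g was near the floor after it (log2 change −3.58, SE 0.18, adjusted p = 4.44e-08). Ces1 genes lie side by side and are similar in sequence, so a probe set may read more than one of them. The epoxide hydrolase Ephx2 rose by 3.62 (SE 0.0784). Further enzymes with very large rises were Sult1a1, a sulfotransferase of phenols, from 12 ± 9.03 to 5327 ± 354, Adhfe1, a mitochondrial hydroxyacid transhydrogenase, from 45.6 ± 17.9 to 12137 ± 441, Cmbl, a hydrolase of the cytosol, from 4.65 ± 4.28 to 5261 ± 374, and carbonic anhydrase Car3, from 16.1 ± 15.7 to 11875 ± 2205.

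Retinoid and steroid enzymes rose in 20 of 38 cases and fell in 3. Hsd11b1, which regenerates active glucocorticoid inside the cell, gave 32, 56.5 and 17.2 at day 0 and 16583, 17447 and 15585 at day 10 (log2 change 8.41, SE 0.221, adjusted p = 4.78e-10). Day-10 signals exceeded day-0 signals on all arrays. The retinol saturase Retsat rose from 451 ± 7.04 to 4644 ± 604 and the retinal reductase Dhrs3 from 96.9 ± 13.9 to 1063 ± 50.7. The alcohol dehydrogenases went apart, with Adh1 up by 4.20 (SE 0.124) and Adh7 down by 2.02 (SE 0.177).

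Redox genes moved in both directions. Selenbp1, a selenium-binding methanethiol oxidase, gave 4.96, 1.88 and 20.4 at day 0 and 13721, 13320.3 and 14162 at day 10, a change of 9.17 (SE 0.21) (adjusted p = 2.16e-10). With 1 or 64 added to the signal in place of 16 this change was 10.90 or 7.57. Catalase (Cat) rose from 2768 ± 178 to 14196 ± 283 and the thioredoxin inhibitor Txnip from 1643 ± 271 to 12894 ± 700.0. Glutathione peroxidase Gpx1 fell from 11630.0 ± 393 to 3939 ± 199.7 and thioredoxin reductase Txnrd1 from 2835 ± 59.2 to 583 ± 127. Of 35 antioxidant and thiol genes 19 rose and 10 fell.

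Among metal-handling genes the Steap metalloreductases, which reduce iron and copper at membranes, divided. Steap4 gave 1.5, 20.6 and 3.28 at day 0 and 3452, 3088 and 3051 at day 10, whereas Steap1 fell from 3385 ± 169.5 to 479 ± 86 and Steap2 from 5095 ± 174 to 558 ± 42.2. All 3 paralogues had groups that did not overlap. The copper ferroxidase ceruloplasmin (Cp) rose from 446 ± 119 to 5135 ± 857, the iron regulator Hfe from 12.7 ± 18.1 to 491 ± 87.8 and the siderophore-binding lipocalin Lcn2 from 9.92 ± 6.53 to 1005 ± 118. Of 42 such genes 21 rose and 9 fell (control-scaled 14 and 14), and the sign of their median (0.22) turned under hybridization control scaling (−0.06).

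**Figure D3:**
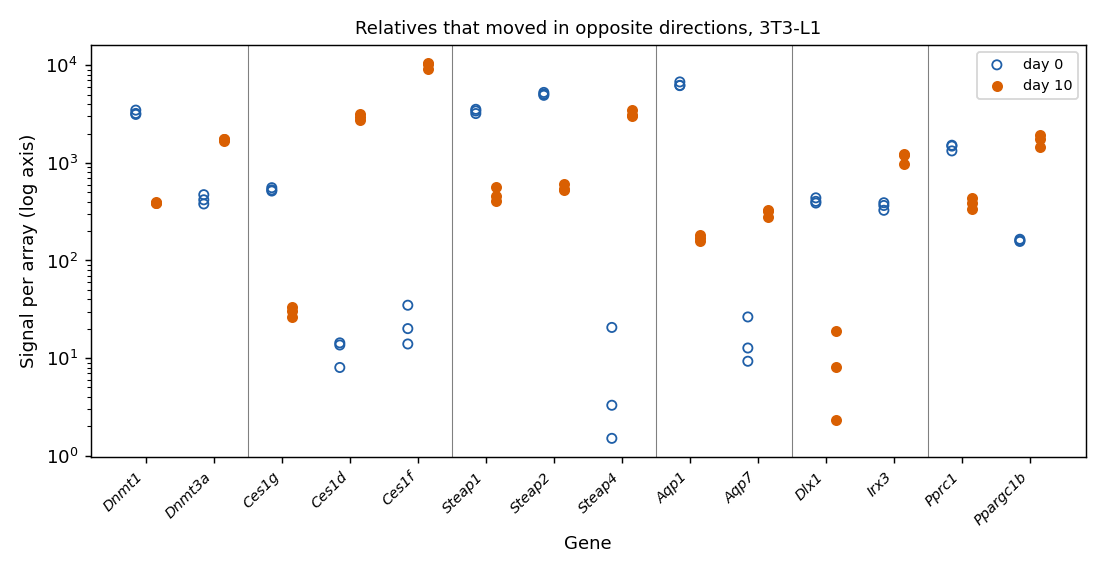
Signal on each white array (log axis; day 0 open, day 10 filled, 3 arrays each) for relatives that moved in opposite directions, with lines between families. Dnmt1, Ces1g, Steap1, Steap2, Aqp1, Dlx1 and Pprc1 lie lower at day 10, and Dnmt3a, Ces1d, Ces1f, Steap4, Aqp7, Irx3 and Ppargc1b lie higher.

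Most endoplasmic reticulum folding genes rose. Ero1a, the oxidase that supplies disulfide bonds in the endoplasmic reticulum, gave 1232, 1262 and 1228 at day 0 and 27586, 28452 and 29869 at day 10, and the arrays of the groups were far apart (log2 change 4.51, SE 0.121, adjusted p = 5.56e-10). The J-domain cochaperone Dnajb9 rose from 1175 ± 46 to 10903 ± 324, and Xbp1, the factor of the unfolded protein response, from 3186 ± 124 to 14390.0 ± 69.5. Of 29 folding genes 20 rose and 5 fell (14 and 7 under hybridization control scaling). Genes that ATF4 activates under amino acid or endoplasmic reticulum stress rose in 15 of 21 cases, 10 by 2-fold or more, and fell in 3. The lipoprotein receptor Vldlr rose from 274 ± 18.5 to 6057 ± 442, the stress protein Nupr1 from 1743 ± 29.3 to 12042 ± 1227, and Ddit4, a brake on mTORC1, from 1919 ± 230.1 to 10050.4 ± 837. Asparagine synthetase Asns, a standard ATF4 target, had signals of 5181 ± 537 and 4651 ± 406 (adjusted p = 0.208).

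Promoter windows of Vldlr and Nupr1 are shown for the rises in this group, with the C/EBP-ATF element (TGATGCAA, either strand) in capitals. RefSeq gives Vldlr another start, whose window (chr19:27216234-27216533) holds no match. The window of Hspa5, the main chaperone of the endoplasmic reticulum, which rose by 0.94 (SE 0.0781) and was chosen after its values were seen, is shown with the endoplasmic reticulum stress element (ERSE, either strand, which contains a CCAAT box) in capitals.
Vldlr (chr19:27216770-27217069, plus strand): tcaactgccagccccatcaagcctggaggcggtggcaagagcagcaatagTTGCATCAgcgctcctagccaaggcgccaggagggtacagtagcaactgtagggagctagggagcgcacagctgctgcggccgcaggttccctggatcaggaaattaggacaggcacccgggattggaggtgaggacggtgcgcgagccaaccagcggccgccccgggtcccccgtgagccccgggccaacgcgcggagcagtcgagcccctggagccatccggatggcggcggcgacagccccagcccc
Nupr1 (chr7:126625421-126625720, minus strand): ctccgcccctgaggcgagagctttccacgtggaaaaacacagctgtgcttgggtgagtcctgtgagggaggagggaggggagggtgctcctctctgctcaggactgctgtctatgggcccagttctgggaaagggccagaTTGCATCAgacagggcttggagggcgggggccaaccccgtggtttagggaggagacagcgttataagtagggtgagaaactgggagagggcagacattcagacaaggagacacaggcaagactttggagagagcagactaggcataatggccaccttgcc
Hspa5 (chr2:34771840-34772139, plus strand): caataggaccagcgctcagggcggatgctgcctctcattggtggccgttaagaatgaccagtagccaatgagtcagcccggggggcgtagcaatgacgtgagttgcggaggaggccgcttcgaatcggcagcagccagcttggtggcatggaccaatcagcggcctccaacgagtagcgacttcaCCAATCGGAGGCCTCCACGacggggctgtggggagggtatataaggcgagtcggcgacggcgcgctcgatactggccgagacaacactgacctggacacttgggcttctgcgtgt
The ATF element was found in 6 of 21 windows of the ATF4 list (28.6%) and in 0.895% of all windows. Cytosolic tRNA synthetases, which fell more often than they rose, held it in 4 of 12 windows (33.3%). The stress element was found in 10 of 29 windows of the folding list (34.5%) and in 0.119% of all. The ATF4 and folding lists were assembled partly from known targets of these factors, so the shares describe the lists and were not tested.

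Enzymes that cross-link and modify matrix proteins rose and fell in like numbers. Of 18 such genes 8 rose and 9 fell. Transglutaminase Tgm2 rose from 6.43 ± 3.94 to 597 ± 145, the membrane protease Fap from 13.1 ± 12.6 to 369 ± 19.3, and the lysyl hydroxylase Plod2 from 316 ± 26.9 to 1512 ± 139.8. The lysyl oxidases Loxl3 and Loxl4 fell from 2140.2 ± 74 to 472 ± 74.5 and from 433 ± 48.7 to 57.5 ± 17.7. The protease inhibitors of the serpin family fell in 9 of 18 tested cases and rose in 3 (control-scaled 1 and 9), with Serpina3n up from 4.06 ± 1.5 to 153 ± 4.65. Among secreted proteins of the largest rises, chemerin (Rarres2) rose from 141 ± 27 to 24079 ± 1500.0, Itih4, an inter-alpha-trypsin inhibitor heavy chain, from 20.1 ± 17.4 to 4983 ± 881, and Igfbp4, which binds insulin-like growth factors, from 80.0 ± 28.4 to 8988 ± 907. Camp, the precursor of the antimicrobial peptide cathelicidin, rose from 8.53 ± 3.31 to 2594 ± 220.4, and S100a8, a subunit of calprotectin, from 46.9 ± 7.73 to 3457 ± 161.

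Autophagy genes rose in 27 of 38 cases and fell in 2 (21 and 6 under hybridization control scaling). Atg101, a subunit of the initiating kinase complex, rose from 256 ± 17.4 to 1600.3 ± 72.8. The mitophagy receptor Bnip3 rose from 5402 ± 361 to 25973 ± 1144 and the kinase Pink1, which marks damaged mitochondria, from 419 ± 18.9 to 1830.4 ± 85.7. Of 11 cathepsins 9 rose and 2 fell, with the lysosomal proteases Ctso and Ctsf up by 2.22 (SE 0.0711) and 2.77 (SE 0.279). Vacuolar ATPase genes rose in 9 of 20 cases and fell in 2 (control-scaled 6 and 4), and their median of 0.17 became −0.09 under hybridization control scaling.

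Most target genes of the mechanically regulated factors fell. Of 26 targets of YAP and of the actin-regulated MRTF-SRF factors, 21 fell, 16 by 2-fold or more, and 2 rose. Ccn1, a secreted matrix protein and standard YAP target, gave 4083, 3483 and 5194 at day 0 and 513, 373 and 405 at day 10 (log2 change −3.25, SE 0.187, adjusted p = 1.25e-07). No day-10 array reached a day-0 array. Myosin light chain Myl9 fell from 459 ± 39.9 to 29.7 ± 11.8 and the enteric actin Actg2 from 277 ± 41.3 to 14.6 ± 12. In the promoter window of Ccn1, shown because this family fell together, capitals mark the TEAD motif (GGAATG, either strand).
Ccn1 (chr3:145649936-145650235, minus strand): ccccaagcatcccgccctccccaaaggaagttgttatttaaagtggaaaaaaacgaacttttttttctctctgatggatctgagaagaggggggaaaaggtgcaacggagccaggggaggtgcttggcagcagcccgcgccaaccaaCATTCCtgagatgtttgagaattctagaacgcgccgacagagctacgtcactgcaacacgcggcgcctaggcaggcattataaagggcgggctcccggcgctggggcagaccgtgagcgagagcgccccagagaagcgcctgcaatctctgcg
This motif was found in 11 of 22 windows of the family (50.0%) and in 14.7% of all windows, again in a list assembled from known targets.

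Tubulins fell in 13 of 17 cases and none rose, with Tuba4a down from 4404 ± 179 to 949 ± 91.4. Septins, filament proteins of the cell cortex, had 3 up and 3 down of 10, near the shares over all genes. Septin11 stood at −2.32 and Septin6 at 1.94. Stathmin (Stmn1), which frees tubulin from microtubules, fell from 10412 ± 161 to 569 ± 83. The annexin Anxa3 gave 10369.6, 10599 and 10830.4 at day 0 and 332, 286 and 371 at day 10 and fell by 4.95 (SE 0.0983) with no overlap. The intermediate filament gene desmin (Des) rose from 133 ± 39 to 685 ± 36.8 and keratin Krt18 from 13.3 ± 1.49 to 222 ± 10.1.

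Surface proteins changed member by member. The water channel Aqp1 gave 6239.8, 6197 and 6760.4 at day 0 and 169, 183 and 158 at day 10 and fell by 5.11 (SE 0.291), and Aqp5 fell from 1728 ± 103 to 295 ± 81.6, whereas Aqp7, which passes the glycerol released by lipolysis, rose from 16.1 ± 9.06 to 309 ± 28.6. Integrins rose in 6 and fell in 7 of 19 cases, near the shares over all genes for changes of any size. At 2-fold or more 26.3% rose and 21.1% fell, above the 13.2% and 12.4% over all genes. The laminin receptor subunits Itga7 and Itga6 rose from 10.9 ± 8.26 to 528 ± 60.5 and from 1098 ± 71.7 to 4250.5 ± 54.5, and the fibronectin receptor subunit Itga5 fell from 212 ± 28 to 84.6 ± 23. Laminin is the main protein of the basement membrane that surrounds a fat cell, and fibronectin is typical of fibroblast matrix. The adhesion molecules Cdh2 and Cdh11 fell by 1.38 (SE 0.101) and 1.53 (SE 0.145), and the protocadherins Pcdh7 and Pcdh19 by 3.47 (SE 0.151) and 3.39 (SE 0.15). The tetraspanin Tspan12 rose from 276 ± 93 to 4922 ± 377 and Tspan5 fell from 1139.6 ± 74.7 to 129 ± 17.1. Claudin Cldn15 rose from 794 ± 56.5 to 5536 ± 529. Of 10 genes of caveolae, the membrane pits that are abundant on fat cells, 6 rose and 1 fell (control-scaled 5 and 2), with Cav2 up by 1.22 (SE 0.0757) and Cavin2 by 1.60 (SE 0.0834).

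Of 46 potassium channel genes 9 rose and 7 fell, shares below those over all genes. At 2-fold or more 8 of the 46 rose, a share above the 13.2% over all genes, and 3 fell. The large-conductance calcium-activated channel Kcnma1 rose from 25.8 ± 29.5 to 495 ± 26.2, and the intermediate-conductance channel Kcnn4, known from proliferating fibroblasts, gave 702, 699.6 and 698 at day 0 and 30.7, 69.9 and 80.7 at day 10. The background channels went apart, with Kcnk3 up by 2.67 (SE 0.219) and Kcnk2 down by 2.67 (SE 0.299). In calcium handling the inositol trisphosphate receptor Itpr3 fell from 862 ± 80.9 to 67.3 ± 26.3 and the plasma membrane pump Atp2b4 rose from 32.1 ± 12.5 to 184 ± 71.8.

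Receptors and hormones outside the adipokines included some of the largest changes. The melanocortin receptor Mc2r, which binds the stress hormone ACTH, gave 1.6, 15.4 and 7.48 at day 0 and 2358, 2471 and 2215 at day 10, and Mrap, the accessory protein it needs to reach the cell surface, gave 2.71, 4.18 and 4.08 at day 0 and 5187, 5052 and 4674 at day 10. Both were near the floor on all day-0 arrays and high on all day-10 arrays (log2 change 6.65, SE 0.2, adjusted p = 1.24e-09 for Mc2r and 7.99 for Mrap). Hcar2, the receptor of ketone bodies and niacin that lowers lipolysis, rose from 11.2 ± 9.06 to 2167 ± 107. Angiotensinogen (Agt), precursor of the pressor peptide angiotensin, rose from 11.8 ± 7.29 to 4479 ± 157. The gut and brain peptide cholecystokinin (Cck) gave 5029, 4194 and 5051 at day 0 and 73.2, 40.6 and 51.1 at day 10 and fell by 6.09 (SE 0.251). The neurotrophin Bdnf fell from 885 ± 133 to 183 ± 46. Of 46 peptide and receptor genes of this list 7 rose and 8 fell, shares below those over all genes, and 7 of the 7 rises were 2-fold or more. That share was slightly above the 13.2% over all genes at 2-fold.

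**Figure D4:**
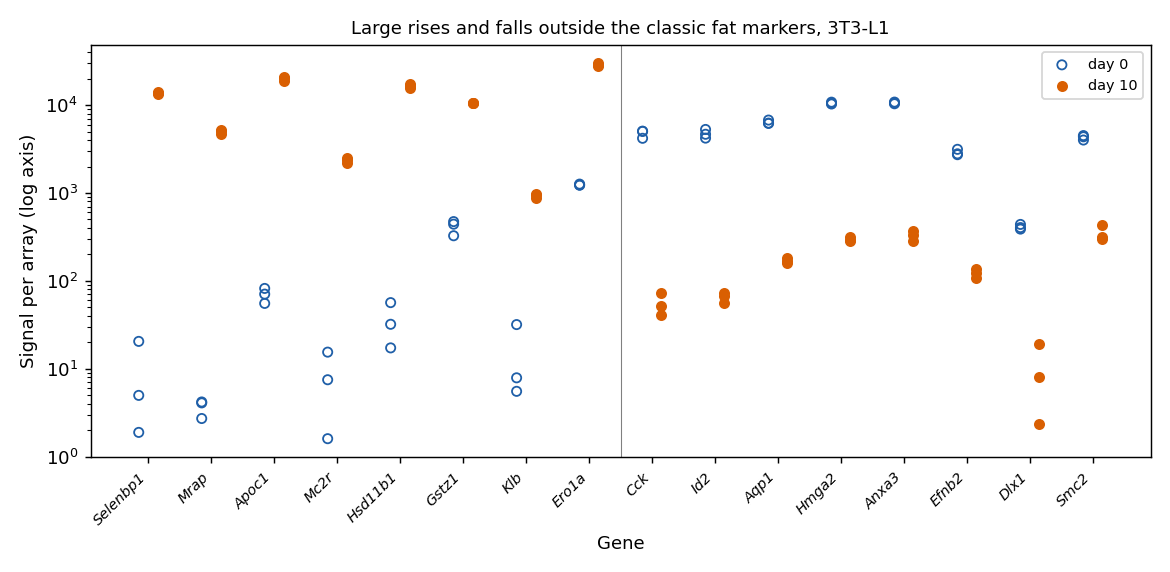
Signal on each white array (log axis) of 8 genes with large rises (left of the line) and 8 with large falls (right) outside the classic fat markers; open circles are the 3 arrays of day 0 and filled circles the 3 of day 10. The groups are apart in each gene, and the day-0 arrays of Mc2r, Mrap, Selenbp1 and Klb and the day-10 arrays of Dlx1 lie at the bottom of the scale, where their own spread is wide.

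Intracellular signalling genes rose and fell. Rgs2, which dampens Gq signalling, gave 318, 428 and 329 at day 0 and 9003, 9004 and 9271 at day 10 (log2 change 4.62, SE 0.116, adjusted p = 3.60e-10), while Rgs4 fell from 434 ± 6.06 to 35.4 ± 13.4. Day-0 and day-10 arrays did not overlap for either. The cyclic AMP phosphodiesterase Pde3b, through which insulin restrains lipolysis, rose from 167 ± 24.8 to 1870.3 ± 42.8, and the adenylyl cyclase Adcy7 fell from 268 ± 3.96 to 59.4 ± 23.8. The cyclic GMP-dependent kinase Prkg2 fell from 11902 ± 479 to 526 ± 79.2. In numbers near the shares over all genes, of 21 dual-specificity phosphatases 8 rose and 6 fell (control-scaled 5 and 7). At 2-fold or more 23.8% of them rose and 23.8% fell, above the 13.2% and 12.4% over all genes. The nuclear ERK phosphatase Dusp5 was down from 299 ± 19.8 to 13.9 ± 0.257 and Dusp1 up by 1.35 (SE 0.09). Among interleukin receptors Il15ra rose from 12.6 ± 1.85 to 478 ± 43.8 and Il13ra1 fell from 548 ± 36.8 to 62.9 ± 13.2.

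Growth factor families changed on both sides of the signal. In the FGF family 11 of 27 rose and 7 fell (control-scaled 8 and 8). The coreceptor Klb, which lets cells respond to the liver hormone FGF21, gave 7.87, 5.52 and 31.8 at day 0 and 973, 952 and 871 at day 10, and the decoy-like receptor Fgfrl1 rose from 1319.8 ± 42.3 to 7309 ± 431, while the keratinocyte growth factor Fgf7 fell from 8369.9 ± 542 to 1733 ± 119. In the EGF family 5 of 15 rose and 5 fell, near the shares over all genes for changes of any size. At 2-fold or more 26.7% rose and 26.7% fell, above the 13.2% and 12.4% over all genes. The ligands Ereg, Nrg1 and Hbegf fell from 1429.9 ± 103 to 80.5 ± 10.7, from 743 ± 66.4 to 101 ± 11.8 and from 474 ± 62.5 to 68.3 ± 33.1, and the ligand Nrg4, an adipose-derived factor, rose from 39.1 ± 12 to 536 ± 64.7. The receptor Egfr rose by 1.13 (SE 0.11), its relative Erbb2 fell by 1.69 (SE 0.221), and the feedback inhibitor Errfi1 rose by 1.71 (SE 0.073). The ephrin ligand Efnb2 gave 2791, 2729 and 3141 at day 0 and 107, 136 and 122 at day 10, and its family fell in 6 of 15 cases with Epha2 down from 496 ± 119.6 to 24.8 ± 24.4.

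Counts in the Notch pathway lay near the shares over all genes. Of 23 Notch genes 8 rose and 6 fell (control-scaled 5 and 7), with the ligand Jag1 up from 391 ± 21.4 to 2830.4 ± 100.2 and the nuclear effector Rbpj down from 3697 ± 240.4 to 1364 ± 62.6. Of 13 Hedgehog genes 3 rose and 5 fell, with the effector Gli3 down from 789 ± 29 to 111 ± 35.1 and the signal transducer Smo by 1.13 (SE 0.0776). Gli2 had signals of 522 ± 43.5 and 523 ± 31.5 (adjusted p = 0.982).

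Among transcription factors of mesenchymal and positional identity, more genes fell than rose. Of 47 homeobox genes outside the Hox clusters 19 fell, 13 by 2-fold or more, and 7 rose. The paired genes Dlx1 and Dlx2, which pattern the face and limb, fell most among them, Dlx1 with 388, 439 and 404 at day 0 and 2.33, 19 and 8.04 at day 10 and Dlx2 from 444 ± 72 to 25.9 ± 7.81. Irx3, a factor known from studies of obesity and fat cell energy use, rose from 361 ± 32.1 to 1137 ± 144. In the list of T-box, Twist, Snail and Zeb factors 9 of 20 fell and 3 rose. Osr1 fell from 1397 ± 23 to 250.3 ± 37.9, Twist2 from 3667 ± 192 to 878 ± 29.9 and Prrx2 from 1828 ± 279.7 to 399 ± 46.4, whereas Zeb2 rose from 785 ± 61.8 to 2812 ± 154. The chondrogenic factor Sox9 fell by 2.25 (SE 0.101).

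Among nuclear receptors 12 of 26 rose and 7 fell, with 4 and 4 at 2-fold or more (control-scaled 7 and 7). The oxysterol receptor Nr1h3 rose from 51 ± 9.64 to 458 ± 51.7. The orphan receptors Nr2f1 and Nr2f2, of the COUP-TF pair, fell from 4061 ± 224 to 388 ± 51.7 and from 1931 ± 192 to 661 ± 40.1, and the vitamin D receptor Vdr from 536 ± 79.9 to 111 ± 17. Of the immediate early factors 7 of 24 rose and 10 fell, with Egr3 down from 1314 ± 139 to 135 ± 12.8 and Fos up from 184 ± 28.3 to 648 ± 23.5. The factors Klf15 and Nfia, both known in fat cells, rose by 7.24 (SE 0.147) and 1.52 (SE 0.135), and the ETS repressor Elk3 and the forkhead factor Foxc2 fell by 2.65 (SE 0.0884) and 2.51 (SE 0.208). The growth arrest gene Gadd45a rose from 390.4 ± 25.4 to 4346 ± 754, and Id2, an inhibitor of helix-loop-helix factors, gave 5287, 4214 and 4660.1 at day 0 and 56.1, 66.7 and 73.2 at day 10 and fell by 5.86 (SE 0.105).

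Some of these genes moved the opposite way in the brown line. Line, inducers and day of harvest differ together here and cannot be told apart. Over all genes, 144 (1.05%) were called in opposite directions in the lines at 2-fold or more each with a difference that passed the test, and 123 of them rose in the white line while 21 fell in it. These counts come from the main settings only. Apod rose here and fell there, from 681 ± 80.0 to 19.7 ± 7.18, a difference of changes of 10.54 (SE 0.503, adjusted p = 1.01e-07). Agt did the same, from 3249 ± 377 to 387 ± 70.0 in the brown line, a difference of 10.40 (SE 0.254, adjusted p = 2.70e-09). Atp2b4, Camp, Ddit4, Egfr, Errfi1, Fap, Plod2 and Septin6 also rose in white and fell in brown cells. Apod and Camp were dim at white day 0 and at brown day 8. The size of their differences therefore depends on the number added to the signal.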

How the data were processed

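Total RNA of 12 samples was labelled with a 3' IVT kit and hybridized to Affymetrix arrays, per the labels. The deposited values are linear signal intensity per probe set, which the authors computed in Affymetrix Expression Console (named in the submitters' processing notes). No algorithm or version is stated there. Each array's 2% trimmed mean was 500.003 to 500.004. Of 45101 probe sets, 34958 had exactly 1 gene symbol, 932 had several and 9211 were not listed in the platform annotation used here; the 64 control probe sets were left out of tests. The probe set of highest mean log2(signal + 16) stood for its gene. Of 18193 genes, 13745 exceeded the 40th percentile on at least 3 of 12 arrays and 4448 did not. limma 3.58.1 in R 4.3.3 was fitted to 4 group means (8 residual and 1.81 prior degrees of freedom), with Benjamini-Hochberg adjustment. The fit was also run on simulated data with independent noise and no scaling differences between arrays. Far fewer genes changed there than passed here, so that run does not cover the setting of these data. Correlations of arrays were 0.978 to 0.982 within and 0.912 to 0.921 between the white groups.

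Members and lists were chosen with earlier results of these data known, and the patterns for apolipoproteins and cytosolic heat shock proteins were corrected after their matches were seen. Named genes were the 40 largest rises and 40 largest falls without overlap, up to 4 rises and 4 falls of 2-fold or more per list, all members of lists with 14 or fewer tested, cell type markers, and Adipoq, Pparg, Fabp4, Cebpa and Lrg1. Promoter windows are RefSeq's (GRCm38.p6). Alternatives covered offset, normalization, filter, probe set choice, moderation, samples and replicate block.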

Additional observations from a re-analysis of the deposited data

Results flagged for a closer look

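The genes below were called in opposite directions in the white and the brown line, each at 2-fold or more, and the difference of their changes passed the limma test. Line, inducers and day of harvest differ together between the lines, so they cannot be told apart. The calls and differences below come from the main settings only. Those of Apod and Camp rest on dim signals at white day 0 and at brown day 8, so their size depends on the offset. Agt changed by 7.37 in the white and −3.03 in the brown cells, a difference of 10.40 (SE 0.254, adjusted p = 2.70e-09). Apod changed by 6.24 in the white and −4.30 in the brown cells, a difference of 10.54 (SE 0.503, adjusted p = 1.01e-07). Atp2b4 changed by 2.02 in the white and −1.34 in the brown cells, a difference of 3.36 (SE 0.52, adjusted p = 0.000377). Camp changed by 6.74 in the white and −3.39 in the brown cells, a difference of 10.13 (SE 0.288, adjusted p = 4.21e-09). Ddit4 changed by 2.38 in the white and −1.48 in the brown cells, a difference of 3.87 (SE 0.197, adjusted p = 1.65e-07). Egfr changed by 1.13 in the white and −2.93 in the brown cells, a difference of 4.06 (SE 0.156, adjusted p = 2.84e-08). Errfi1 changed by 1.71 in the white and −2.57 in the brown cells, a difference of 4.28 (SE 0.103, adjusted p = 2.70e-09). Fap changed by 3.82 in the white and −2.61 in the brown cells, a difference of 6.43 (SE 0.485, adjusted p = 2.39e-06). Plod2 changed by 2.20 in the white and −2.50 in the brown cells, a difference of 4.70 (SE 0.121, adjusted p = 3.02e-09). Septin6 changed by 1.94 in the white and −1.41 in the brown cells, a difference of 3.34 (SE 0.141, adjusted p = 4.95e-08). These are the 10 such genes named in the text above; over all 144 genes that met the same rule, 123 rose in the white line and 21 fell in it.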

How the results depend on the processing

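The counts of rises and falls stayed within 1.5 times their main values under every alternative run. Across the other offsets (1 and 64), quantile normalization, equal medians, no filter, a 60th percentile filter, the mean of probe sets, specific probe sets only, an intensity trend, robust moderation and the 6 white arrays alone, rises numbered 3446 to 4173 and falls 3687 to 4725. Scaling to the 18 hybridization control probe sets gave 2931 rises and 5640 falls, and an adjusted p under 0.01 gave 3460 and 3686. Leaving out each white array in turn gave 3829 to 3965 rises and 4014 to 4125 falls. No pairing by replicate number was detected, with deviations of same-numbered arrays correlated at 0.00118, 0.0267 and 0.0069. Correlations over all genes tested cannot exclude pairing in some of them. The fit with the replicate block called 4087 genes up and 4242 down. Of the 228 genes named, none that was called changed sign, Gli2, which was not called, changed sign around 0 (−0.27 under hybridization control scaling), Coq4 missed an adjusted p of 0.01, and Asns passed 0.05 under hybridization control scaling (−0.43) and with the mean of probe sets (−0.35). Cytosolic ribosomal proteins had a median of −0.06, and of −0.63 with specific probe sets only. Of 92 family medians, 16 changed sign under a scaling, and all 92 moved by at least the spread between arrays under some alternative. With specific probe sets only, the condensin, cohesin and centromere median went from −2.12 to −1.55. The antioxidant and thiol median went from 0.53 to 0.19, and that of DNA repair stayed at −0.89. Some medians changed sign under that setting, including polyamines and creatine (−0.09 to 0.35). For dim genes the size of a change depends on the offset, and the number of arrays limits the precision. The cause of these differences was not tested.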
